A study of Mus musculus with 7 samples.

Results

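The ionotropic GABA-A, glutamate and glycine receptors and the metabotropic glutamate receptors were examined in the embryonic mouse subpallium, as 37 genes chosen by name out of 17178 genes named on the array. They comprise 10 GABA-A subunit genes, 4 glycine receptor genes, 4 AMPA, 5 kainate and 7 NMDA receptor subunit genes, and 7 metabotropic glutamate receptor genes. Each gene was represented by its brightest probe, by mean log2 signal over the 7 arrays. Of the 37 genes, 34 had a named probe and 28 could be tested between the groups. The background filter (well above background on at least 3 arrays) was passed by 78.8% of all named genes.

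GABA-A and glycine receptors are pentameric chloride channels, and AMPA, kainate and NMDA receptors are tetrameric cation channels opened by glutamate; the metabotropic receptors signal through G proteins instead. In immature neurons intracellular chloride is high, so GABA and glycine depolarise the cell, and these receptors are present before most synapses form. In the embryonic ganglionic eminences, ambient GABA and glutamate act on progenitors and on migrating interneurons.

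RNA came from microdissected ganglionic eminences and septum of female CD-1 embryos at E12.5, with 1 embryo on each Agilent 1-colour array. There were 4 embryos labelled Control, whose genotype is given no further, and 3 labelled Otx2 cKO, which carried a floxed Otx2 allele recombined by RxCre. RxCre acts across the forebrain but leaves out its caudal dorsomedial part, where the choroid plexus and cortical hem lie. The comparison asks which genes differ in the subpallium between embryos with these labels; the Otx2 protein is a homeodomain regulator of anterior brain identity. The embryos came from 4 litters, and litter 2 alone held both groups (control replicates 2 and 3, cKO replicates 1 and 3). Of the 2 slides, 1 carried cKO replicate 1 together with control replicates 1 and 2 (slide 1), and the other the remaining 4 arrays (slide 2).

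Promoter sequences are shown for 3 of the genes, Gabra2 and Gabrg1 because among the receptor genes with a promoter entry they alone held a homeodomain motif that was searched, and Glra2 because its difference between the groups was the most negative of those tested. Each runs 5′ to 3′ over the 250 bases before the start of the gene, on the gene's strand, from RefSeq on GRCm38.p6, and capitals mark the motifs. The motifs were TAATCC, the core bound by OTX-type homeodomains, read on both strands, and TAATTA, a core common to many homeodomains that is its own reverse complement. Gabra2 (minus strand, chr5:71095850-71096099) held 1 TAATCC, Gabrg1 (minus strand, chr5:70842618-70842867) held 2 overlapping TAATTA, and Glra2 (minus strand, chrX:165327394-165327643) held neither.
Gabra2: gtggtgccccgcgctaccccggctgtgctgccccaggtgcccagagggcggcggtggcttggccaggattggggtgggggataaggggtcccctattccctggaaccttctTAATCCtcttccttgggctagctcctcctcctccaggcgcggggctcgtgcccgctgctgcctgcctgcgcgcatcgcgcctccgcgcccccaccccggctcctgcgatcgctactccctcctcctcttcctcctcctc
Gabrg1: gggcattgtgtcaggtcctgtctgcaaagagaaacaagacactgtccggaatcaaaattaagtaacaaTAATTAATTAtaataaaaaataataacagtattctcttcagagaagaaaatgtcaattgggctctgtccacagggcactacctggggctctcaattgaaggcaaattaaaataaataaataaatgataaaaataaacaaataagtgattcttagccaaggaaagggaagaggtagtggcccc
Glra2: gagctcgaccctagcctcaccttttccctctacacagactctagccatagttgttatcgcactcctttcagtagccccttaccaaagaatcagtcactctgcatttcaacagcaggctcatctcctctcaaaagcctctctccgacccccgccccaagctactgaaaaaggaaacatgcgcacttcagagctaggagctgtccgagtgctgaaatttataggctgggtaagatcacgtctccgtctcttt
The promoter table matched 27 of the 37 genes with 34 promoters. TAATCC was present in 1 of these (2.94%) and TAATTA in 1 (2.94%), against 6.25% and 4.84% of all 32851 promoters of that length. The median GC content was 58.8% over the receptor promoters and 52.4% over all promoters. A match describes these letters alone, and no binding was measured here.

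Across the series, 13341 genes were tested with limma and 28 passed an adjusted p of 0.05, which is 0.21% of the genes tested (17 lower and 11 higher in the arrays labelled cKO). The Otx2 probe went against the label: its log2 signal was 0.19 to 0.56 in the 4 control arrays and 1.77 to 2.34 in the 3 arrays labelled cKO, a difference of 1.52 ± 0.17 (limma SE; adjusted p = 0.0356). No source used here says whether the probe lies in the floxed part of the gene, so every direction below is that of arrays as labelled. All 10 subpallial markers were detected, among them Nkx2-1, Dlx1 and Dlx2, and their median difference was -0.028. Values throughout are log2 signals relative to the 75th percentile of the array, so 1 unit is a doubling within a probe, and levels of different genes cannot be set against each other. Differences are cKO minus control with limma's moderated SE (n = 4 and 3 unless stated).

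Most receptor genes read lower in the arrays labelled cKO, by amounts that did not pass the adjusted test for any gene. By limma, 0 of the 28 tested genes passed an adjusted p of 0.05, beside 0.21% of all genes tested. At an unadjusted p below 0.05 there were 8 lower genes, Grik1, Gabrg1, Gria3, Grin2b, Glra2, Grm5, Grik3 and Grik5, and 1 higher gene, Grm8. The 8 lower genes are 28.6% of the 28, beside 7.1% of all genes tested, and the 1 higher gene stands beside 3.94%. Every cKO-labelled array lay below every control array in 9 genes (32.1%, beside 7.65% of all genes tested) and above every control array in 1, Grm8 (beside 5.14%). Of the 9, Gria2 had a value on only 2 control and 2 cKO-labelled arrays. The difference was negative in 20 genes and positive in 8, while it was negative in 46.7% of all genes. The median difference of the 28 genes was -0.25, with a range of -1.07 to 0.38, against a median of 0.014 over all genes. The genes were taken by name, the 28 that were tested are not all 37, and genes measured on the same arrays are not replicates, so these counts describe the group and carry no test of it. In bulk tissue, fewer cells of a type and less RNA per cell cannot be told apart.

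**Figure D1:**
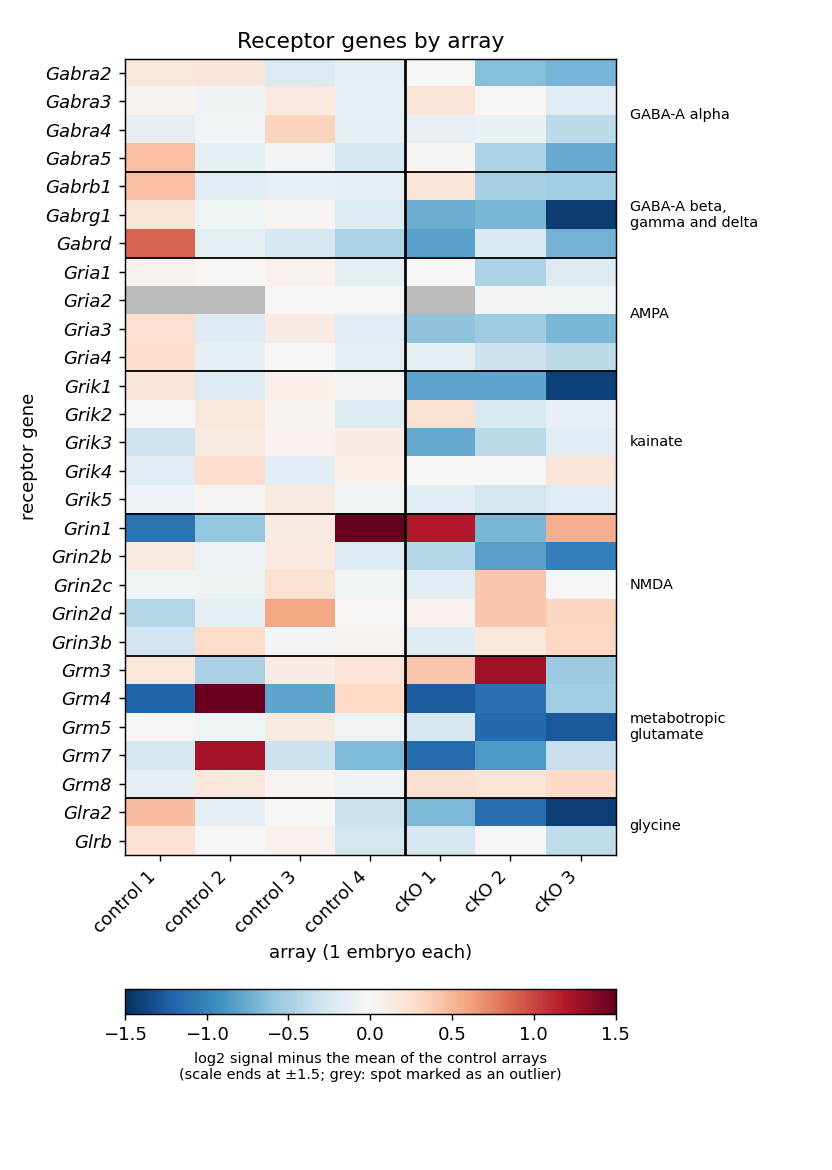
The heat map shows the 28 tested receptor genes (vertical axis, grouped by receptor class) on the 7 arrays (horizontal axis); colour is the log2 signal minus the mean of the control arrays, with the scale ending at -1.5 and 1.5 and grey for spots marked as outliers. Blue fields gather in the 3 columns labelled cKO, in Grik1, Gabrg1, Glra2, Gria3, Grin2b and Grm5 among others, while Grin1, Grm3, Grm4 and Grm7 vary widely within groups.

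**Figure D2:**
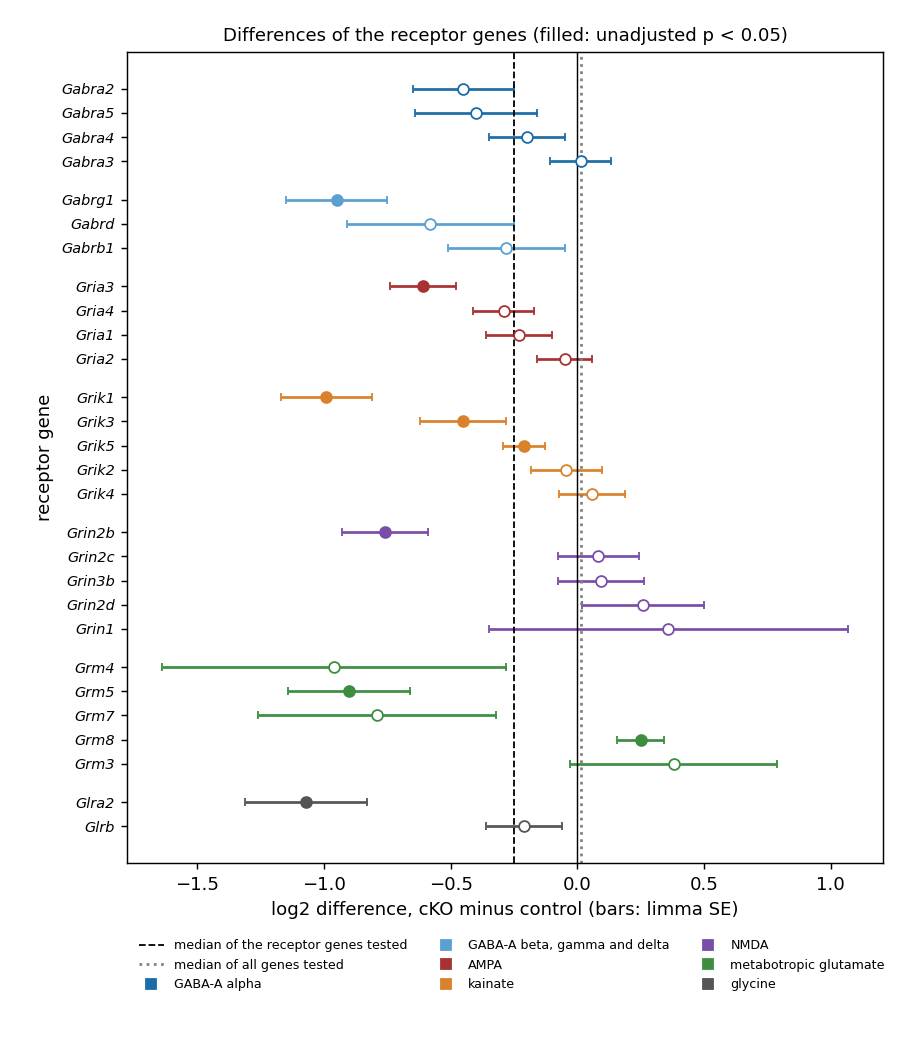
The plot gives the log2 difference (cKO minus control, horizontal axis) of each tested receptor gene with its limma SE as a bar, coloured by class and filled where the unadjusted p was below 0.05. The dashed line at -0.25 is the median of the receptor genes and the dotted line at 0.014 the median of all genes tested.

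Over 27 receptor genes valued on all arrays, the median, with each gene's control mean set to 0, was 0.05, -0.07, 0.058 and -0.13 for the controls, in the order of their replicate numbers, and -0.17, -0.41 and -0.39 for the arrays labelled cKO. The 3 arrays labelled cKO were the lowest of the 7, and cKO replicate 1 lay nearest to the controls. This replicate had the highest signal among the cKO-labelled arrays in 12 of the 27 genes, cKO replicate 2 in 9 and cKO replicate 3 in 6.

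Among the GABA-A alpha subunits, which with the beta subunits form the GABA binding site, 3 of 4 tested genes had negative differences and none passed the test. Gabra2, an alpha subunit common in the embryonic brain, read -0.26, -0.25, -0.65 and -0.56 in the controls and -0.44, -1.07 and -1.13 in the arrays labelled cKO. Its difference was -0.45 ± 0.20 (limma adjusted p = 0.461). The groups overlapped, since cKO replicate 1 lay between the controls, and the difference was -0.19 within slide 1 and -0.49 within slide 2. Gabra5, which contributes to extrasynaptic receptors, read -2.22, -2.82, -2.71 and -2.93 in the controls and -2.63, -3.14 and -3.43 in the arrays labelled cKO, a difference of -0.40 ± 0.24 (adjusted p = 0.597). It was -0.22 without cKO replicate 3, -0.25 without control replicate 1 and -0.62 without cKO replicate 1. The groups overlapped here too, and a dimmer probe of Gabra5, also detected on all 7 arrays, had the opposite sign at 0.85. That probe read -4.65, -3.72, -5.19 and -5.34 in the controls and -4.79, -3.48 and -3.35 in the arrays labelled cKO. Gabra4 differed by -0.20 ± 0.15 and Gabra3 by 0.013 ± 0.12, both within the spread of the arrays; a second probe of Gabra3 gave -0.23. Gabra6, a subunit of cerebellar granule cells, was well above background on 0 arrays.

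The GABA-A subunit that differed most was Gabrg1, whose gamma subunit shapes benzodiazepine sensitivity and receptor clustering. Gabrg1 read -3.05, -3.32, -3.22 and -3.46 in the controls and -4.0, -3.95 and -4.68 in the arrays labelled cKO. All 3 cKO-labelled arrays lay below all 4 controls, with cKO replicate 3 the lowest. The difference was -0.95 ± 0.20, or 1.93-fold lower (limma adjusted p = 0.209). Within slide 1 it was -0.81, within slide 2 -0.98, within litter 2 -1.07 and with normexp background correction -0.59.

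Gabrd, the delta subunit of extrasynaptic receptors, was well above background on 3 of 4 control arrays and 1 of 3 arrays labelled cKO. Its signal was -5.44, -6.46, -6.56 and -6.78 against -7.12, -6.54 and -7.02, near the floor of -7.45 that was set for all arrays, and the groups overlapped. The difference was -0.58 ± 0.33 (limma adjusted p = 0.577), with -1.17 within slide 1, -0.11 within slide 2, -0.29 without control replicate 1 and -0.072 with normexp background correction. Gabrb1, a beta subunit, differed by -0.28 ± 0.23 (adjusted p = 0.702). Gabrb2, another beta subunit, could not be tested on its brightest probe, which was marked as an outlier on 4 arrays. Its next probe read 0.82, 0.86, 0.91 and 0.68 in the controls and 0.48, 0.26 and 0.22 in the arrays labelled cKO. With genes represented by a probe valued on every array, a choice made after seeing the data, Gabrb2 differed by -0.50 ± 0.098 (limma adjusted p = 0.189), with no overlap of the groups. Gabrg3 was well above background on 1 array only, cKO replicate 2, and was not tested.

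Of the GABA-A genes tested, 4 lie in a cluster on chromosome 5. Their differences were -0.95 for Gabrg1, -0.45 for Gabra2, -0.20 for Gabra4 and -0.28 for Gabrb1, all negative.

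Of the glycine receptor genes, Glra2 encodes the alpha subunit that prevails in the embryonic brain. Glra2 read 0.14, -0.47, -0.33 and -0.64 in the controls and -0.99, -1.45 and -1.73 in the arrays labelled cKO. Every cKO-labelled array lay below every control, and cKO replicate 1 again lay nearest to them. The difference was -1.07 ± 0.24, or 2.1-fold lower (limma adjusted p = 0.231). Within slide 1 it was -0.83 and within slide 2 -1.11. Glrb, the beta subunit that binds gephyrin, overlapped between the groups and differed by -0.21 ± 0.15 (adjusted p = 0.657). Glra1, the alpha subunit of adult spinal cord and brainstem, was well above background on 0 arrays, and Glra3 on 1 control array only.

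All 4 AMPA receptor genes were tested and had negative differences, with 1 at an unadjusted p below 0.05. Gria3 read -0.86, -1.30, -0.99 and -1.28 in the controls and -1.71, -1.64 and -1.79 in the arrays labelled cKO. The cKO-labelled values lay close together and below every control. The difference was -0.61 ± 0.13, or 1.52-fold lower (limma adjusted p = 0.212), and a second Gria3 probe gave -0.63, also without overlap. Gria4 read -0.76, -1.16, -1.01 and -1.15 against -1.17, -1.34 and -1.41. Those groups did not overlap, by a narrow margin, and the difference was -0.29 ± 0.12 (adjusted p = 0.454); its 2 dimmer probes gave -0.04 and -0.12. Gria1 differed by -0.23 ± 0.13 (adjusted p = 0.563) with overlapping groups, whereas its dimmer probe differed by -0.42 without overlap. The brightest probe of Gria2, whose subunit sets the calcium permeability of the channel, was marked as an outlier on control replicates 1 and 2 and cKO replicate 1. It read 2.25 and 2.21 in the other controls and 2.19 and 2.17 in the other cKO-labelled arrays, a difference of -0.05 ± 0.11 (n = 2 and 2; limma adjusted p = 0.905). With the spots marked as outliers kept, cKO replicate 1 read 2.3, above control replicates 3 and 4 at 2.06 and 2.08, so the groups overlapped.

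The kainate receptor genes held the smallest p of the receptor genes tested, in Grik1, together with genes that hardly differed. Grik1, which encodes GluK1, a subunit found on many GABAergic interneurons, read -2.59, -2.99, -2.69 and -2.81 in the controls and -3.56, -3.56 and -4.17 in the arrays labelled cKO. The gap between the groups exceeded the range of the controls. The difference was -0.99 ± 0.18, or 1.99-fold lower (limma adjusted p = 0.154). Within slide 1 it was -0.76, within slide 2 -1.11 and within litter 2 -1.02, and a second Grik1 probe, for another RefSeq transcript, gave -0.63 without overlap. Grik3, another pore-forming subunit, read -5.83, -5.38, -5.46 and -5.41 against -6.29, -5.93 and -5.70. The groups overlapped at control replicate 1 and cKO replicate 3, and the difference was -0.45 ± 0.17 (limma adjusted p = 0.416). It was -0.078 with normexp background correction and -0.29 without cKO replicate 1, and its unadjusted p was below 0.05 in 13 of 23 alternatives. Grik5, a high-affinity subunit that needs a partner such as GluK1 or GluK2, read 3.01, 3.14, 3.23 and 3.03 against 2.93, 2.83 and 2.92. The groups did not overlap, but the difference was small, at -0.21 ± 0.084 or 1.15-fold lower (limma adjusted p = 0.44). Grik2 differed by -0.044 ± 0.14 and Grik4 by 0.059 ± 0.13, each less than its SE, although a dimmer Grik2 probe gave -0.38.

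Of the 5 NMDA receptor genes tested, 1, Grin2b, had an unadjusted p below 0.05. Grin2b, the GluN2 subunit typical of the embryonic brain, read -0.86, -1.09, -0.85 and -1.20 in the controls and -1.43, -1.82 and -2.04 in the arrays labelled cKO. Again no cKO-labelled array reached a control. The difference was -0.76 ± 0.17, or 1.7-fold lower (limma adjusted p = 0.22), with -0.46 within slide 1 and -0.90 within slide 2. All 5 Grin2b probes had negative differences, from -0.18 to -0.76, but the groups overlapped in those at -0.18 and -0.23. The probes at -0.66 and -0.72 were dim, well above background on 1 and 0 arrays labelled cKO. The other 4 tested genes had positive differences, none of which passed the test and each of which changed sign in 2 to 5 of the alternatives: 0.26 ± 0.24 for Grin2d, 0.095 ± 0.17 for Grin3b and 0.083 ± 0.16 for Grin2c. Grin1, the subunit that every NMDA receptor needs, was spread widely within both groups, from -5.26 to -2.59 in the controls and from -4.83 to -2.95 in the arrays labelled cKO. Its difference of 0.36 ± 0.71 was smaller than its SE. Grin2a, a subunit that appears mainly after birth, was well above background on 1 control array only, and Grin3a had no named probe.

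Among the metabotropic glutamate receptors, Grm5 read lower and Grm8 slightly higher in the arrays labelled cKO, neither past the adjusted test. Grm5, which couples to phospholipase C and is present on neural progenitors and neurons, read -2.48, -2.54, -2.33 and -2.52 in the controls and -2.72, -3.64 and -3.73 in the arrays labelled cKO. All cKO-labelled arrays lay below the controls, but cKO replicate 1 only slightly. The difference was -0.90 ± 0.24, or 1.86-fold lower (limma adjusted p = 0.29). It was -0.21 within slide 1, which holds cKO replicate 1, and -1.26 within slide 2. Without cKO replicate 1 the difference was -1.22 and its limma adjusted p was 0.0351. That was the only pass of a receptor gene in 23 alternative settings, in several of which no gene of the array passed. Grm8, which inhibits adenylyl cyclase and sits mainly on presynaptic terminals, read -3.30, -3.0, -3.13 and -3.25 in the controls and -2.92, -2.96 and -2.87 in the arrays labelled cKO. Every cKO-labelled array lay above every control, and the difference was 0.25 ± 0.093 (limma adjusted p = 0.402). Its unadjusted p was below 0.05 in 9 of 23 alternatives, and in the authors' deposited log2 values the difference was 0.14.

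Grm4 and Grm7, further receptors that inhibit adenylyl cyclase, were dim and variable. Grm4 was well above background on 2 control arrays and 1 array labelled cKO, and read -7.40, -4.50, -6.99 and -5.90 against -7.45, -7.32 and -6.72. The groups overlapped, with a difference of -0.96 ± 0.68 (limma adjusted p = 0.652). Grm7 read -5.34, -3.84, -5.41 and -5.75 against -6.24, -5.95 and -5.43, a difference of -0.79 ± 0.47 (adjusted p = 0.593). These groups overlapped as well, and control replicate 2 had the highest signal of both genes. Without it the difference was -0.40 for Grm4 and -0.37 for Grm7. Grm3 differed by 0.38 ± 0.41, with cKO replicate 2 at -2.82 and cKO replicate 3 at -4.63. Grm2 and Grm6 had no named probe.

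**Figure D3:**
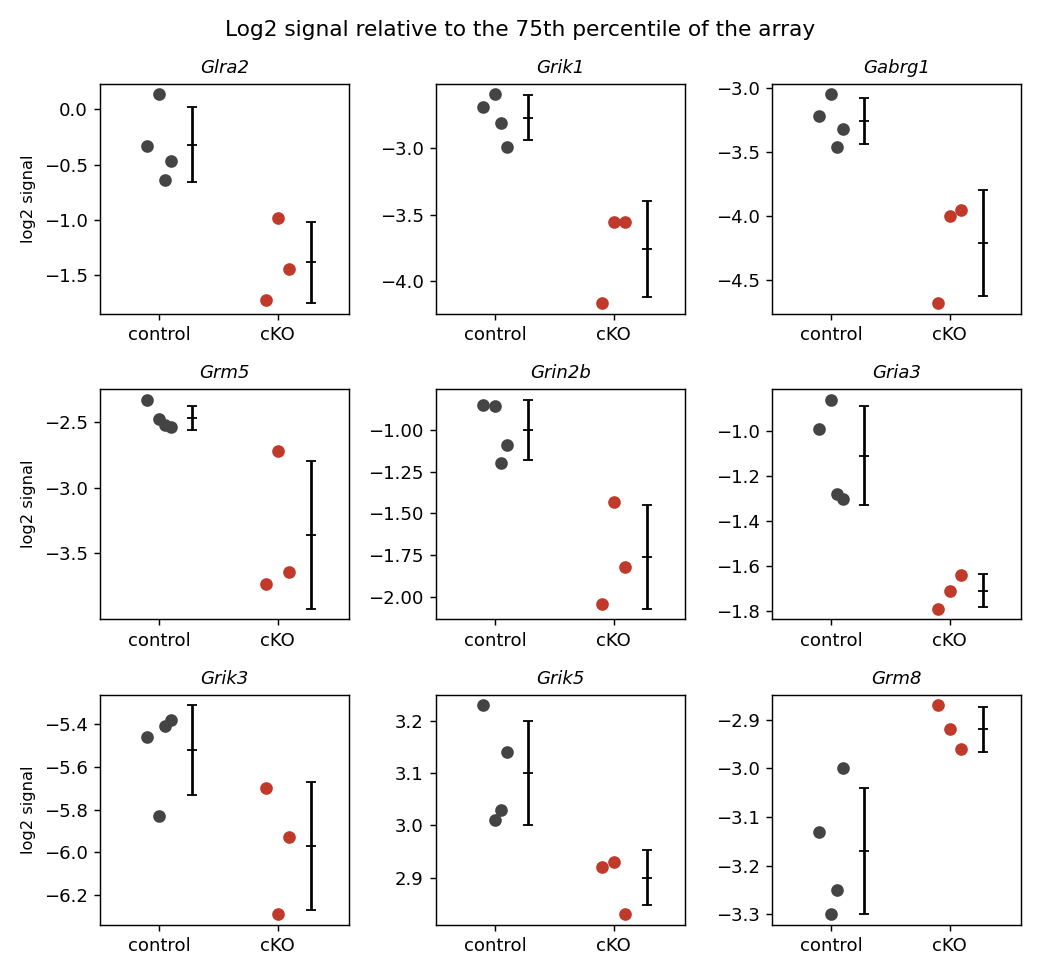
Each panel shows 1 of the 9 receptor genes with an unadjusted p below 0.05; points are single arrays (grey control, red cKO-labelled), bars are the group mean ± SD, and the vertical axis is the log2 signal relative to the 75th percentile of the array, on a scale of its own in each panel. In Glra2, Grik1, Gabrg1, Grm5, Grin2b, Gria3 and Grik5 every red point lies below every grey point, in Grik3 the groups overlap, and in Grm8 every red point lies above.

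The receptor classes can be set side by side by their median differences: -0.30 for the 4 GABA-A alpha genes, -0.58 for the 3 other GABA-A genes, -0.64 for the 2 glycine receptor genes, -0.26 for the 4 AMPA genes, -0.21 for the 5 kainate genes, 0.095 for the 5 NMDA genes and -0.79 for the 5 metabotropic genes. The last of these is the value of Grm7, which is dim and variable. The -0.58 is the value of Gabrd, which is near the floor and ranged from -1.17 to -0.072 over the alternative settings. Differences between classes were not tested. Where a tested gene had further detected probes, 13 of 15 such probes, in 12 genes, had the sign of the brightest probe, and those of Gabra5 and Gabra3 did not. Over the alternative settings 17 of the 28 genes kept their sign and 11 did not, among them Grin1, Gabra3, Grik2 and Grin3b.

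**Figure D4:**
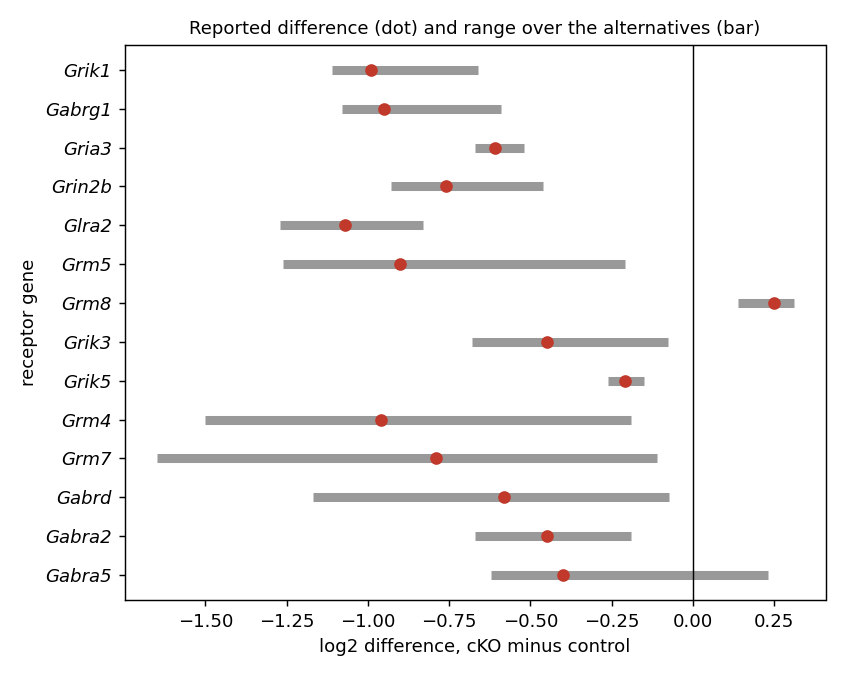
For 14 receptor genes the dot marks the reported log2 difference (cKO minus control, horizontal axis) and the grey bar its range over the alternative settings. Grik1 ranges from -1.11 to -0.66 and Gria3 from -0.67 to -0.52, whereas Grm5 ranges from -1.26 to -0.21 and the bar of Gabra5 crosses 0.

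The genes that make and move the transmitters, hold the receptors at synapses and modify their gating were read from 5 lists of 65 genes. Of 56 tested, 0 passed the adjusted test by limma, beside 0.21% of all genes; 14 were lower at an unadjusted p below 0.05 (beside 7.1% of all genes) and 1 was higher (beside 3.94%). Their median difference was -0.096. In 12 of them every cKO-labelled array lay below every control (beside 7.65% of all genes), and in 2 above (beside 5.14%).

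In the list for GABA and glycine synthesis, transport and chloride, 3 of 10 tested genes were lower at an unadjusted p below 0.05. Gad1, which makes GABA from glutamate, read 1.89 to 2.06 in the controls and 1.02 to 1.5 in the arrays labelled cKO, a difference of -0.67 ± 0.13 (limma adjusted p = 0.171). Gad2, its paralog, differed by -0.34 ± 0.078 (adjusted p = 0.243). Neither gene's groups overlapped. The chloride transporters that set the direction of the GABA response differed little: Slc12a2, the importer, by -0.094 ± 0.18 and Slc12a5, the exporter, by -0.099 ± 0.084. In the inhibitory scaffold and trafficking list, 2 of 11 tested genes were lower and 1 was higher at an unadjusted p below 0.05. Nlgn2, an adhesion molecule of inhibitory synapses, differed by -0.30 ± 0.07 (adjusted p = 0.254) and Insyn1, a component of inhibitory synapses, by -0.40 ± 0.10 (adjusted p = 0.272), while Gphn, the gephyrin scaffold itself, differed by -0.0099 ± 0.078.

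On the glutamate side, the AMPA and kainate auxiliary subunits had 3 of 11 tested genes lower at an unadjusted p below 0.05 and a median of -0.23. Cacng3, which traffics AMPA receptors, differed by -0.89 ± 0.17 (limma adjusted p = 0.183). Neto1, a partner of kainate and NMDA receptors, differed by -0.39 ± 0.13 (adjusted p = 0.365). In the excitatory scaffold list, 4 of 14 tested genes were lower at an unadjusted p below 0.05. Dlgap1, which links the postsynaptic scaffold to Shank proteins, read -1.08, -1.32, -1.21 and -1.38 in the controls and -1.85, -1.85 and -2.11 in the arrays labelled cKO. The groups were well apart, and the difference of -0.69 ± 0.11 had an adjusted p of 0.0982, the smallest among receptor and partner genes. Dlg2, a scaffold protein of NMDA receptors, differed by -0.66 ± 0.17 (adjusted p = 0.268). In the list for glutamate transport and metabolism, 2 of 10 tested genes were lower at an unadjusted p below 0.05: Slc1a1, a neuronal glutamate transporter, at -0.86 ± 0.27 (adjusted p = 0.333) and Slc17a7, a vesicular glutamate transporter, at -0.79 ± 0.30 (adjusted p = 0.412). Slc17a6, the other main vesicular transporter of forebrain, differed by 0.13 ± 0.095.

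Marker lists of neurons and of progenitors had median differences of opposite sign, and in both lists the array medians of the groups overlapped. Of 14 tested neuron markers, 0 passed the adjusted test by limma and 3 were lower at an unadjusted p below 0.05 (beside 7.1% of all genes). In 5 of the 14 every cKO-labelled array lay below every control (beside 7.65% of all genes), and in 0 above (beside 5.14%). Among the 5, Stmn3 had a value on only 2 cKO-labelled arrays. The median difference of the 14 was -0.16. Over the 13 neuron markers with a value on every array, the median per array was -0.081 to 0.027 in the controls and -0.24 to -0.072 in the arrays labelled cKO. The values of cKO replicate 1 and control replicate 4 were the ones that overlapped. For the 12 progenitor and cell cycle markers the median difference was 0.17, with 10 positive and 2 negative. None passed the adjusted test by limma, and 1, Hes1, was higher at an unadjusted p below 0.05 (beside 3.94% of all genes). In 2 every cKO-labelled array lay above every control (beside 5.14%). The array medians were -0.12 to 0.059 in the controls and 0.009 to 0.22 in the arrays labelled cKO. That of cKO replicate 1, 0.009, lay below those of control replicates 2, 3 and 4. The pallial glutamatergic markers (6 of 7 tested) had array medians, over the 5 with a value on every array, of -0.16 to 0.25 and -0.42 to -0.14. Neurod2 (-0.80 ± 0.18, limma adjusted p = 0.231) and Neurod6 (-0.76 ± 0.16, adjusted p = 0.209) read lower in the arrays labelled cKO. Emx2 read higher (0.56 ± 0.13, adjusted p = 0.238). The groups did not overlap in these genes, but overlapped in Tbr1, Eomes and Emx1. The part of these marker lists in the receptor differences was not tested.

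Some markers of neighbouring or non-neural tissue were detected too. Of the hypothalamic markers, 7 of 9 were tested, and Otp was well above background on 0 arrays. Hmx2 and Hmx3, 2 of the 7, passed as higher (beside 0.0825% of all genes), and 6 had positive differences. Those of Pomc (0.045 ± 0.15) and Nkx2-4 (0.30 ± 0.42) were smaller than their SE. Nkx2-2 went the other way, by -1.59 ± 0.38 (limma adjusted p = 0.254), with every cKO-labelled array below every control. It was well above background on 4 control arrays and 1 array labelled cKO. The array medians of the hypothalamic list were -0.40 to 0.27 in the controls and 0.061 to 1.54 in the arrays labelled cKO. Of 7 choroid plexus markers 6 were tested, and 1 passed as higher, Otx2 itself (beside 0.0825% of all genes). The untested marker, Ttr, was well above background on 0 arrays. Of 9 thalamic, midbrain and hindbrain markers 5 were tested, and 3 were well above background on 0 arrays. Of the 5, 1 passed as lower, Gbx2 at -1.90 ± 0.16 (beside 0.127% of all genes). The other 4 tested had positive differences that did not pass, from 0.029 for Pou4f1 to 3.01 ± 0.88 for En2, and the median of the 5 was 0.19. Over the 4 genes of this list with a value on every array, the array medians were -0.35 to 0.22 in the controls and 0.033 to 0.5 in the arrays labelled cKO. Mesenchyme and pericyte markers, all 10 tested, varied between arrays without following the groups. Over the 9 with a value on every array, the array medians ran from -1.87 to 0.82 in the controls and from -1.14 to 1.89 in the arrays labelled cKO. All marker lists were chosen with earlier results of these data known, so a pass in them does not measure tissue content. The part of these tissues in the receptor values was not tested.

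**Figure D5:**
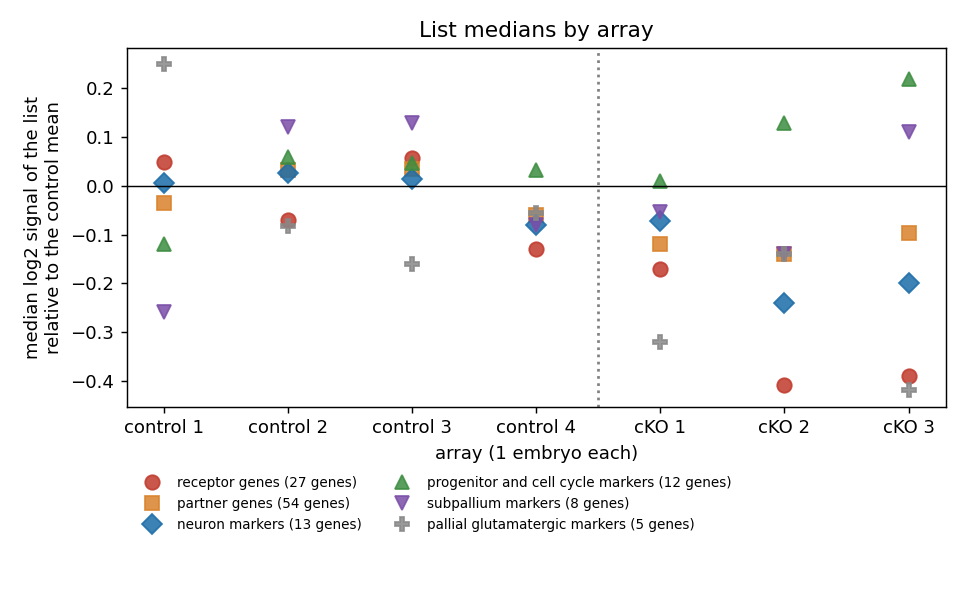
The plot gives, for each array (horizontal axis), the median log2 signal of the genes of a list relative to their control means (vertical axis), for the 27 receptor genes, 54 partner genes and 4 marker lists with a value on every array. The receptor genes lie at -0.13 to 0.058 in the controls and at -0.41 to -0.17 in the arrays labelled cKO. The neuron markers and progenitor markers move down and up over smaller ranges, and their groups overlap.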

How the data were processed

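Per the labels' protocols, Cy3-labelled RNA amplified from each embryo was hybridised to a whole-genome mouse array. Per the file headers, the deposited spot intensity was background-subtracted within each array by Agilent Feature Extraction 10.7.3.1 (the submitters' processing notes name 10.5). A further table deposited by the authors holds log2 values of unstated scale that ranked probes as the median spot signal does (rank correlation at least 0.99998; column medians 7.61 to 7.64); it was used as an alternative.

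From the 43379 non-control spots of each array, those marked as outliers (1.24% to 2.51%) were left out; 68.4% to 72.2% of spots were well above background and 0 were saturated. Spots of a probe were averaged, divided by the 75th percentile of the array, floored at a common log2 value of -7.45 and taken to log2. Probes were named by RefSeq accession through a gene table of GRCm38.p6, used for names only: of 41174 probes, 24844 had 1 symbol. A gene took its brightest probe and was tested if that was well above background on at least 3 arrays and had enough unflagged values; 13541 genes passed the filter and 13341 were tested, by lmFit and eBayes of limma 3.58.1 (R 4.3.3; no covariate beside the group; Benjamini-Hochberg over all genes, threshold 0.05). The median SE was 0.13, and the number of arrays limits the precision. The steps were tested on simulated data.

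Receptor genes and all lists were chosen with earlier results of these data known. Values of every array are given for genes past the test, then those at an unadjusted p below 0.05, then the largest differences until 14 receptor genes were reached, and for genes detected on at least 2 more arrays in 1 group; of each partner list, the 2 genes with the smallest p are given. Other genes named with values, such as Gria1, Gria4, Gabrb2, Slc12a2, Slc12a5, Gphn and Slc17a6, were added after their values were seen. The alternatives covered background correction, normalization, filter, probe rule, the authors' table, slide, litter, replicate number, variance prior and leaving out each array. The planned normexp correction on the mean spot signal was run on the median spot signal, because the mean was not in the files used here. Replicate numbers do not pair the embryos: deviations of same-numbered arrays from their group means correlated at 0.11, -0.53 and 0.026. Results on further receptor subunit genes outside the 37 are not reported here.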

Additional observations from a re-analysis of the deposited data

Results flagged for a closer look

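In 4 receptor genes 1 control array stood apart from the other 3, with a gap to its nearest neighbour that was too large a share of the group's range for Dixon's criterion. Such a gap arises by chance in about 1 in 20 groups, and 29 groups were checked. In Gria1 control replicate 4 was low at 1.15 against 1.32 to 1.35 in the others, a gap of 0.843 of the range. In Gabrb1 control replicate 1 was high at -2.34 against -2.95 to -2.91, a gap of 0.937. In Grm3 control replicate 2 was low at -4.58 against -3.97 to -3.89, a gap of 0.891. In Grin2c control replicate 3 was high at -4.58 against -4.89 to -4.87, a gap of 0.92. None of these 4 genes was among the 9 with an unadjusted p below 0.05.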

How the results depend on the processing

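There were 23 alternatives, 19 planned and 4 chosen after seeing the data (normexp on the median spot signal, a probe valued on every array, slide 1 alone and litter as a block). The number of receptor genes past the adjusted test by limma was 0 in 22 of them and 1 without cKO replicate 1, Grm5, so that it ranged from 0 to 1 over the arrays left out in turn. The count at an unadjusted p below 0.05 by limma was 9 as reported. With slide 1 alone left aside, because it holds 1 cKO-labelled array, it ranged from 7 to 11, within 1.5 times of 9. Leaving out each array also gave 7 to 11, and the shares of all genes moved too. Without cKO replicate 1 (11 receptor genes) 7.71% of all genes were lower and 6.9% higher. Without cKO replicate 2 (7 receptor genes) the shares were 7.34% and 2.44%. The partner genes had no pass in any alternative. In several alternatives no gene of the array passed, so the receptor and partner genes could not differ from the rest there. These were slide 2 alone, litter 2 alone, litter or replicate number as a block, and leaving out control replicate 2, 3 or 4 or cKO replicate 3. The median difference of the receptor genes lay between -0.33 and -0.16, against an SD of 0.11 between arrays. With the replicate number as a block the receptor genes had 0 passes by limma, 11 at an unadjusted p below 0.05 and a median of -0.33. With litter as a block these were 0, 8 and -0.26. Only litter 2 held both groups, so the difference in that fit rests on litter 2, which alone gave the same 8 and -0.26. Those 2 alternatives are therefore not separate support. With slide 1 alone left aside, the limma adjusted p of Grik1 ranged from 0.053 with normexp to 0.762 with litter as a block. Of the 14 genes with values for every array, Gabra5 alone changed sign, to 0.23 when all probes of a gene were averaged. Probes near the floor (Gabrd, Grm4) and spots marked as outliers (Gria2, Gabrb2) limit what can be said of those genes.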
